A study of Mus musculus with 4 samples.

Results

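The genes described here are the cyclins, the cyclin-dependent kinases (CDKs), the CDK inhibitors and the 6 subunits of the MCM2-7 helicase that licenses DNA replication. The symbol rule that picks them uses no expression value. Cdkn1a was left out by the same symbol rule. Of the 13825 genes in the count table, 48 matched: 21 cyclins, 17 CDKs, 4 CDK inhibitors and 6 MCM subunits. With a mean of at least 10 counts over the 4 libraries, 47 of the 48 were tested. The exception was Ccna1, a cyclin known mainly from germ cells, which had 7 counts or fewer in every library. Ccnb1, Ccnb2, Cdk3, Cdkn2a and Cdkn2b were not analysed here.

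Tibialis anterior (TA) muscle was taken from adult male mice 14 days after section of the sciatic nerve or from control legs, in wild-type mice (WT) and in mice lacking Fgf21 in the whole body (Fgf21KO). WS and WD stand for sham and denervated WT muscle, and KS and KD for the same in Fgf21KO. Each group is 1 library made from 4 muscles pooled before sequencing, so the spread between mice is not seen in these data. The sample descriptions call the control leg innervated and mention no operation on it, whereas the methods of the study describe an operation without transection. Those methods describe sham and denervated legs of the same mice for gene expression work in general but sham-operated and denervated mice for the RNA-seq, so it is unclear whether the groups of a genotype share mice.

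The total over the genes of the table was 25249879 (WS), 29150147 (WD), 34141303 (KS) and 27740920 (KD) counts. Levels are given as CPM (counts scaled to a common library size) after scaling with edgeR's TMM factors, and 3 counts correspond to between 0.092 CPM (WD) and 0.129 CPM (WS). Between 2 libraries only a log2 ratio with a 95% interval is given, and this interval covers counting error only. The ratio includes a prior count of 2, a small count added to each library that draws it towards 0. The interval comes from the counts without it, so for genes with few counts it is not centred on the ratio. The denervation effect was tested by edgeR's quasi-likelihood test over all 4 libraries, with genotype in the model and Benjamini-Hochberg adjustment over 13084 genes. That test takes the WT and the Fgf21KO pair as repeats of denervation. Its p-values measure the disagreement of the pairs and the spread shared across genes, not the spread between mice. A gene was called a differentially expressed gene (DEG) at an adjusted p below 0.05 with a log2 fold change of at least 1 in size, which is the criterion of the study. Fgf21 itself was not analysed here, and the label of the knockout was not checked with it.

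Cyclins are regulatory subunits that switch on CDKs. D-type cyclins with Cdk4 and Cdk6, then E-type cyclins with Cdk2, phosphorylate the retinoblastoma protein and release E2F factors, which turn on genes for DNA synthesis. The MCM2-7 ring is loaded on origins in G1 and unwinds DNA in S phase, while A-type and B-type cyclins with Cdk1 drive G2 and mitosis. Other members of these families, cyclins C, H, K, L and T with Cdk7, Cdk8, Cdk9, Cdk12, Cdk13 and Cdk19, act on RNA polymerase II and RNA processing. Nuclei of mature muscle fibres do not divide, so in muscle the replication genes are known mainly from satellite cells and the interstitial and immune cells.

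After denervation 3 members were higher DEGs (Mcm6, Ccne1 and Cdk18) and 2 were lower DEGs (Ccnk and Cdk19). That is 6.38% of the 47 higher and 4.26% lower, where 6.8% of all genes tested were higher DEGs and 6.15% were lower DEGs. By adjusted p alone, 14 members (29.8%) rose and 11 (23.4%) fell, beside 26.4% and 26.6% of all genes, and 22 passed in neither direction. The median log2 fold change of the 47 was 0.12 against 0.01 for all genes, and the median size was 0.38 in both. The shares called among the members were thus near those of all genes, and the plot of denervation ratios by role shows members on either side of 0 in most roles. Counts on the 13 protein genes of the mitochondrial genome made up 27.0% of WS (exact binomial interval 26.95 to 26.99) and 30.4% of KS (30.40 to 30.43), against 19.4% of WD (19.41 to 19.43) and 20.6% of KD (20.54 to 20.57), and the TMM factors were 0.922 and 0.870 for WS and KS against 1.12 and 1.11 for WD and KD. The part of this difference in the changes of the members was not tested. With total counts in place of TMM factors the median of all genes moved to 0.33, and 4 members were higher and 0 lower DEGs. By adjusted p alone that scale gave 26 members higher and 4 lower (55.3% and 8.51%), beside 46.7% and 12.8% of all genes. The 26 higher included members that did not pass with TMM factors: Ccna2, Ccnc, Ccnd3, Ccnh, Cdk2, Cdk5, Cdk7, Cdk8, Cdk10, Cdk12, Cdk13 and Cdk17. Mcm7 (1.03) was a higher DEG on that scale only. The 4 lower were Ccnk, Cdk19, Ccnd2 and Ccng1. Under it the sign turned for 10 members, namely Ccng2, Ccnt2, Cdk1, Cdk13, Cdk16, Cdkn1b, Cdkn1c, Cdkn2c, Cdkn2d and Mcm2, and Ccnd1, Ccnj, Cdk14 and Cdk20 stayed lower without passing the test.

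**Figure D1:**
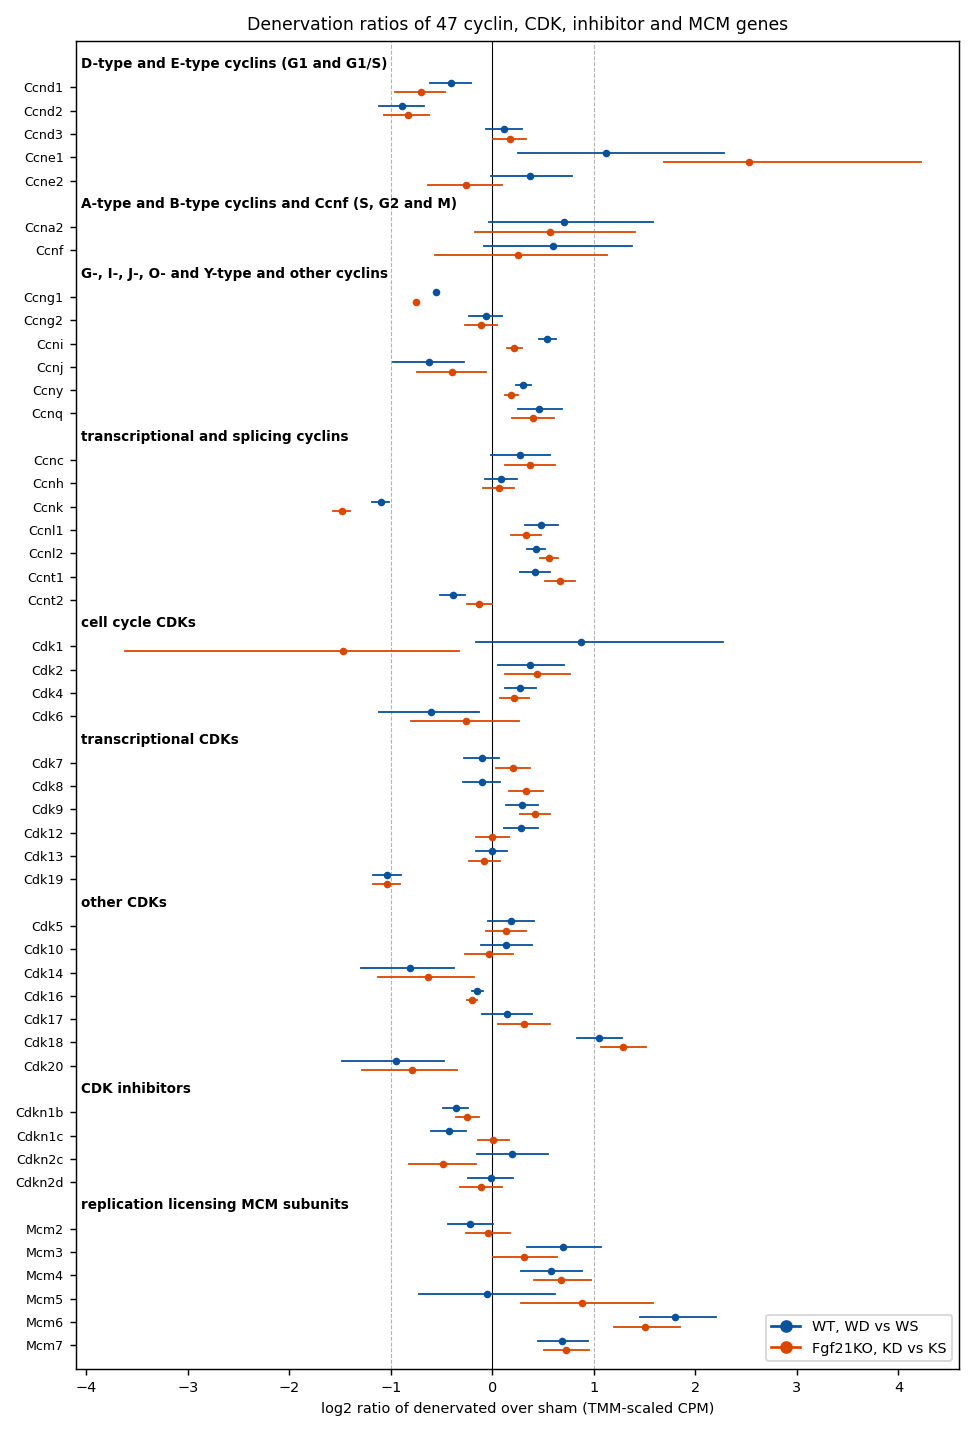
Log2 ratio of denervated over sham muscle for the 47 members tested, grouped by role, in WT (blue) and Fgf21KO (orange), with 95% counting intervals as bars and dashed lines at 2-fold. Mcm6, Ccne1 and Cdk18 lie right of the 2-fold line and Ccnk and Cdk19 left of it in both genotypes, and Cdk1 has its ratios on opposite sides of 0.

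The MCM subunits, which form one ring in equal numbers, did not have equal ratios. Mcm6 had 73 (WS), 361 (WD), 109 (KS) and 325 (KD) counts, or 3.14, 11.1, 3.67 and 10.5 CPM. Both denervated libraries were above both sham libraries by a wide margin. The log2 ratio was 1.80 (1.45 to 2.20) in WT and 1.50 (1.20 to 1.84) in Fgf21KO, and the fitted change was 1.66 ± 0.17 (SE), 3.16-fold (adjusted p = 8.8e-08).

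Mcm7, Mcm4 and Mcm3 rose by less. Mcm7 had 199 (WS), 450 (WD), 275 (KS) and 474 (KD) counts, with a fitted log2 change of 0.71 ± 0.13 (SE) (adjusted p = 0.00011). Mcm4 had 140, 293, 172 and 288 counts in the same order, with a change of 0.63 ± 0.16 (SE) (adjusted p = 0.0021). For both genes the ratios of the genotypes were close, 0.69 and 0.72 for Mcm7 and 0.57 and 0.68 for Mcm4. Mcm3 had 94, 214, 152 and 197 counts, with ratios of 0.69 in WT and 0.31 in Fgf21KO (0.50 ± 0.19 (SE), adjusted p = 0.033). Reads of Mcm7 may be shared with Ap4m1, which overlaps it and had a change of 0.68.

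Mcm2 and Mcm5 did not pass the test. Mcm2 had 306 (WS), 368 (WD), 345 (KS) and 348 (KD) counts, or 13.2, 11.3, 11.6 and 11.3 CPM. Its log2 ratios were -0.22 in WT and -0.04 in Fgf21KO (adjusted p = 0.41). Mcm5, the lowest subunit per length, had 35, 47, 32 and 63 counts, with ratios of -0.06 (WT) and 0.88 (Fgf21KO, interval 0.28 to 1.58) (adjusted p = 0.30). The relation between these subunits differed between sham and denervated muscle. There were 0.239 Mcm6 counts for each Mcm2 count in WS and 0.316 in KS, against 0.981 in WD and 0.934 in KD. Per kilobase of exon this ratio was 0.356 and 0.471 in sham muscle and 1.46 and 1.39 in denervated muscle. The summed level of the 6 subunits was 7.62 (WS), 11.7 (WD), 7.79 (KS) and 12.1 (KD) CPM per kilobase. Within that sum the part of Mcm6 went from 8.82% to 20.2% in WT and from 10.1% to 18.6% in Fgf21KO, and that of Mcm2 from 24.8% to 13.8% and from 21.4% to 13.3%.

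**Figure D2:**
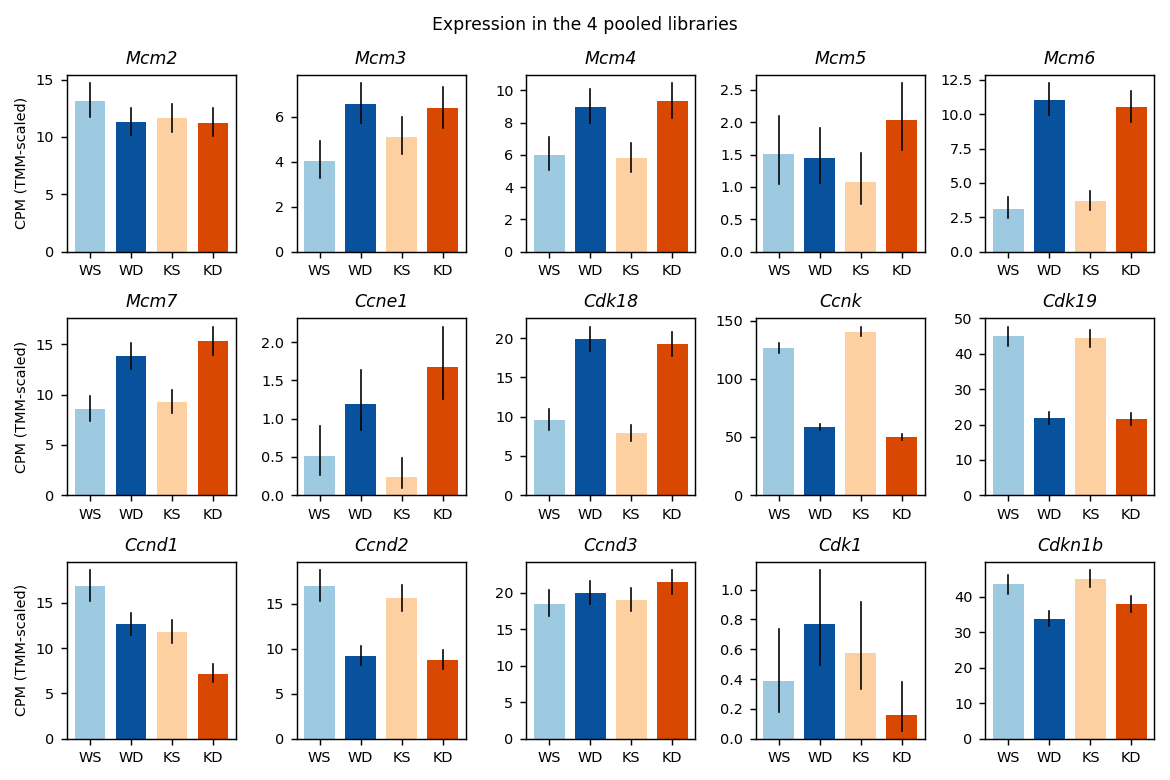
TMM-scaled CPM of 15 members in the WS, WD, KS and KD libraries, each axis starting at 0, with 95% Poisson counting intervals as lines. Mcm6 goes from 3.14 to 11.1 CPM in WT and from 3.67 to 10.5 in Fgf21KO while Mcm2 stays between 11.3 and 13.2, and Ccnd1 is lower in each Fgf21KO library than in its WT counterpart.

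Promoters of MCM genes are textbook E2F targets, so their sequences are shown beside these values. RefSeq windows of GRCm38.p6, from 250 bases before to 50 bases after a gene's start, were found for 37 members (41 windows). The letters searched on both strands were TTTCCCGC, TTTGGCGC, TTTCGCGC and TTTGCCGC for E2F, and CCAAT. An E2F match occurred in 2.27% of all 32851 windows, in 3.87% of the 12495 windows of genes tested, and in 6 of the 41 windows of members (14.6%). Those 6 windows belonged to Mcm3, Mcm5, Mcm6, Mcm7, Cdk1 and Cdk2. CCAAT occurred in 37.4% of all windows, 37.7% of those of genes tested and 58.5% of those of members, including all 6 windows of MCM subunits. TTTGAA, the letters of the CHR element of mitotic genes, occurred in 11.8% of the windows of genes tested and 12.2% of those of members. Mcm4 and Cdk19 had no window. Below, capitals mark E2F and CCAAT matches (also read as ATTGG), and matches that overlap run together, as in Mcm6, where E2F matches begin at -110, -106 and -47 from the start, and in Mcm7, where they begin at -165 and 16 and the last one overlaps a CCAAT. Mcm6 and Mcm7 are shown as subunits that rose and hold E2F matches (Mcm7 has another window, at chr5:138171217-138171516, without one), Mcm2 as the subunit of ratios near 0 without one, and Ccne1 as the member with the largest fitted rise, without either match. The windows lie at chr1:128359656-128359955, chr5:138171834-138172133, chr6:88898731-88899030 and chr7:38107441-38107740, all on the minus strand.
Mcm6: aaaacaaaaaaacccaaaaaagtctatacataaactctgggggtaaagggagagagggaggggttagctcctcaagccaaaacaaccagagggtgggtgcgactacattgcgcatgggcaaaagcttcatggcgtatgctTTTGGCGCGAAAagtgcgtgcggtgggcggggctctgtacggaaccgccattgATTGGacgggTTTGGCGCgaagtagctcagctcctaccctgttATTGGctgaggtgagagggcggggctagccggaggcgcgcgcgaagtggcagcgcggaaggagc
Mcm7: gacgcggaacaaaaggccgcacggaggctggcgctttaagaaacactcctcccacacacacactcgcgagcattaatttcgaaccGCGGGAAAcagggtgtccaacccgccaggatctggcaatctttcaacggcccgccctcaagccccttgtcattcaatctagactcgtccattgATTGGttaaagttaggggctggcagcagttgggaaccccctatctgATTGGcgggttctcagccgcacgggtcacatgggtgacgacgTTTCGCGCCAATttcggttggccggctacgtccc
Mcm2: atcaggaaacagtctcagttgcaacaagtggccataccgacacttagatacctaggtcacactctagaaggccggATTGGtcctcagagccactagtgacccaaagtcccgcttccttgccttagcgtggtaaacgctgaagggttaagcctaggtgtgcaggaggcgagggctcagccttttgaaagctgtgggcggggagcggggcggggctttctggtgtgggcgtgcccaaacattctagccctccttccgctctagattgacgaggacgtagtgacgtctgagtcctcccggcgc
Ccne1: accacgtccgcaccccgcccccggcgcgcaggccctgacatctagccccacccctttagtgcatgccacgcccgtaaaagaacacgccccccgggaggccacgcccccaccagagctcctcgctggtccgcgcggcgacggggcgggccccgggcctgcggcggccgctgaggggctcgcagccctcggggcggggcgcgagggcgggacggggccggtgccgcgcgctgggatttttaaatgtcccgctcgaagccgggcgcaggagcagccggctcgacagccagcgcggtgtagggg
Of the 6 genes with an E2F match, Mcm3, Mcm6 and Mcm7 rose after denervation, and Mcm5 (matches at -153 and -149), Cdk1 (-131) and Cdk2 (-140) did not pass the test. A match is only a string of letters, and binding was not measured.

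Among the G1 cyclins, Ccne1 rose, Ccnd1 and Ccnd2 fell, and Ccnd3 and Ccne2 did not pass the test. Ccne1, the cyclin E1 that partners Cdk2 at the start of S phase, had 12 (WS), 39 (WD), 7 (KS) and 52 (KD) counts. Both denervated libraries were above both sham libraries, at 1.20 and 1.68 CPM against 0.516 and 0.236. Its log2 ratio was 1.11 (0.25 to 2.28) in WT and 2.52 (1.69 to 4.22) in Fgf21KO, and the fitted change was 1.97 ± 0.46 (SE), 3.92-fold (adjusted p = 0.0011). The counts behind it are few, the 2 intervals overlap, and in the second deposited table, which adds 1 to each scaled count, the ratios were 0.52 and 1.10. Ccne2, its close relative, had 83 (WS), 151 (WD), 139 (KS) and 120 (KD) counts, with ratios of 0.37 and -0.27 (adjusted p = 0.89). A630034I12Rik and Ints8, which overlap Ccne2, had changes of 1.74 and 0.36.

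Ccnd2 encodes the D-type cyclin linked to myoblast growth. It had 396 (WS), 299 (WD), 465 (KS) and 270 (KD) counts, or 17.0, 9.17, 15.7 and 8.73 CPM. Its ratio was -0.89 in WT and -0.84 in Fgf21KO, with a fitted change of -0.87 ± 0.13 (SE) (adjusted p = 7.6e-06), short of 2-fold. Ccnd1, cyclin D1, had 392, 412, 349 and 222 counts, or 16.9, 12.6, 11.8 and 7.18 CPM. It fell by 0.55 ± 0.13 (SE) on the log2 scale after denervation (adjusted p = 0.0015). Ccnd1 overlaps LTO1, whose counts ran the other way (277, 542, 373 and 543, a change of 0.48). Ccnd3, the D-type cyclin known from differentiated muscle, had 430, 652, 565 and 662 counts, with ratios of 0.11 and 0.17 (adjusted p = 0.27).

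The balance of the D-type cyclins differed between sham and denervated muscle in each genotype. There were 1.09 Ccnd3 counts for each Ccnd2 count in WS and 1.22 in KS, against 2.18 in WD and 2.45 in KD. Per kilobase, Ccnd3 made up 28.1% (WS), 38.4% (WD), 34.3% (KS) and 49.9% (KD) of the D-type sum. The summed D-type level was 52.4 (WS), 41.8 (WD), 46.4 (KS) and 37.3 (KD) CPM. Of their kinases, Cdk4 was at 24.3 (WS), 29.4 (WD), 25.1 (KS) and 29.1 (KD) CPM, above each D-type cyclin in each library. Cdk6 was lower, at 3.27, 2.12, 2.26 and 1.88 CPM in the same order. Cdk4 (565, 958, 745 and 900 counts) rose by 0.24 on the log2 scale (adjusted p = 0.037), and Cdk6 (76, 69, 67 and 58 counts) had a change of -0.45 (adjusted p = 0.17). Tspan31, which overlaps Cdk4, had a change of 0.27. Cdk2, the partner of cyclin E, had 127, 231, 140 and 198 counts and ratios of 0.37 and 0.44 (adjusted p = 0.061).

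The S, G2 and M members were scarce in all 4 libraries. Ccna2, cyclin A2, had 20 (WS), 47 (WD), 24 (KS) and 38 (KD) counts, with ratios of 0.70 and 0.57 (adjusted p = 0.13). Its reads may be shared with Exosc9, which overlaps it and had 433, 1097, 616 and 977 counts and a change of 0.73. Ccnf, which names the F-box family, had 25, 54, 23 and 29 counts (adjusted p = 0.30). Cdk1, the mitotic kinase, had 9 (WS), 25 (WD), 17 (KS) and 5 (KD) counts. Its log2 ratio was 0.88 (-0.16 to 2.27) in WT and -1.48 (-3.62 to -0.33) in Fgf21KO, so that the genotypes lay on opposite sides of 0, and the denervation test was not passed (adjusted p = 0.79). In the second deposited table the ratios were 0.34 and -0.44.

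Of the 4 inhibitors tested, which hold CDKs in check, 1 fell and 3 did not pass the test. Cdkn1b, p27, fell by 0.31 ± 0.08 (SE) on the log2 scale (adjusted p = 0.0048), from 43.5 CPM in WS to 33.8 in WD and from 45.1 in KS to 37.9 in KD. That fall was seen with TMM factors only: with total counts as the scale the change of Cdkn1b was 0.01 (adjusted p = 0.90). Cdkn1c, p57, had 566 (WS), 588 (WD), 702 (KS) and 735 (KD) counts, or 24.3, 18.0, 23.6 and 23.8 CPM, so that WD was below the other 3 libraries. Its ratio was -0.43 (-0.60 to -0.26) in WT and 0.01 in Fgf21KO (adjusted p = 0.14), and the latter turned sign with DESeq2's size factors. Cdkn2c, p18, had 111, 178, 184 and 136 counts (ratios 0.19 and -0.49, adjusted p = 0.54). Cdkn2d, p19, had 297, 411, 399 and 383 counts (ratios -0.02 and -0.12, adjusted p = 0.67).

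Among members that act on RNA polymerase II and RNA processing, Ccnk had the strongest decrease. It encodes cyclin K, which activates Cdk12 and Cdk13 in transcript elongation. Ccnk had 2937 (WS), 1918 (WD), 4175 (KS) and 1551 (KD) counts, or 126.2, 58.8, 140.5 and 50.2 CPM. The sham libraries were far above the denervated ones, with a ratio of -1.10 (-1.19 to -1.02) in WT and -1.49 (-1.57 to -1.40) in Fgf21KO. The fitted change was -1.29 ± 0.09 (SE), or 2.45-fold lower (adjusted p = 1.1e-10). Setd3, which overlaps Ccnk, had 4196, 5517, 5385 and 5107 counts and a change of -0.11 (adjusted p = 0.19). Whether the counting used strand was not given in the sources used here. The kinases of cyclin K had changes of 0.14 (Cdk12, adjusted p = 0.30) and -0.04 (Cdk13, adjusted p = 0.73).

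Cdk19 and Cdk8 encode paralogous kinases that take the same place in the Mediator complex with cyclin C. Cdk19 had 1045 (WS), 711 (WD), 1318 (KS) and 666 (KD) counts, or 44.9, 21.8, 44.4 and 21.5 CPM. Its log2 ratio was -1.04 in each genotype, with intervals of -1.18 to -0.90 in WT and -1.18 to -0.91 in Fgf21KO (-1.04 ± 0.09 (SE), 2.06-fold lower, adjusted p = 5.8e-09). Cdk8 had 434, 565, 512 and 669 counts, with ratios of -0.11 and 0.33 (adjusted p = 0.43). Thus there were 0.415 Cdk8 counts for each Cdk19 count in WS and 0.389 in KS, against 0.795 in WD and 1.01 in KD. Ccnc, their cyclin, had ratios of 0.27 and 0.37 (adjusted p = 0.073). With total counts as the scale, Ccnk and Cdk19 stayed lower, by 0.98 and 0.72 on the log2 scale, short of 2-fold.

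The subunits of P-TEFb, the kinase that releases paused RNA polymerase II, split with TMM factors as the scale. Cdk9 (522, 896, 645 and 900 counts) rose by 0.36 on the log2 scale (adjusted p = 0.0046). Its cyclin Ccnt1 (574, 1076, 634 and 1047 counts) rose by 0.54 (adjusted p = 9.7e-05). The alternative cyclin Ccnt2 (978, 1043, 1049 and 998 counts) fell by 0.26 (adjusted p = 0.022). With total counts as the scale the change of Ccnt2 was 0.06 (adjusted p = 0.65). Ccnl1 and Ccnl2, cyclins of splicing kinases, rose by 0.40 (adjusted p = 0.0021) and 0.49 (adjusted p = 1.4e-05). Cdk7 and its cyclin Ccnh did not pass the test (changes of 0.05 and 0.07).

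Cdk18 was the DEG among the remaining CDKs. It belongs to the PCTAIRE kinases, named for a stretch of their protein sequence, whose activity is known chiefly from cells that no longer divide. Cdk18 had 223 (WS), 649 (WD), 234 (KS) and 595 (KD) counts, or 9.58, 19.9, 7.88 and 19.2 CPM. Both denervated libraries were about 2-fold or more above both sham libraries, with ratios of 1.05 (0.83 to 1.28) in WT and 1.28 (1.07 to 1.51) in Fgf21KO (1.17 ± 0.13 (SE), 2.25-fold, adjusted p = 1.3e-07). The other PCTAIRE members had smaller changes. Cdk16, the most abundant CDK per length at 49.6 CPM per kilobase, fell by 0.17 (adjusted p = 0.042), and Cdk17 had a change of 0.23 (adjusted p = 0.19). Cdk20 (83, 59, 108 and 64 counts) fell by 0.89 ± 0.25 (SE) (adjusted p = 0.0056) and Cdk14 (94, 74, 98 and 65 counts) fell by 0.74 (adjusted p = 0.016). Ccny, which activates Cdk14 and Cdk16, rose by 0.24 (adjusted p = 0.0074), and Ccnq, the cyclin of Cdk10, rose by 0.43 (adjusted p = 0.0056). Cdk5 and Cdk10 did not pass the test.

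The most abundant member was Ccng1, a cyclin induced by p53 that is abundant in muscle, at a mean of 257.1 CPM per kilobase. Its level was 1087 (WS), 739.7 (WD), 1120 (KS) and 664.7 (KD) CPM, and it fell by 0.65 ± 0.08 (SE) on the log2 scale (adjusted p = 4.7e-07). Its relative Ccng2 had ratios of -0.07 and -0.11 (adjusted p = 0.49). Ccni rose by 0.38 (adjusted p = 0.00061), and Ccnj fell by 0.51 (adjusted p = 0.031). At the other end, Ccna1, Cdk1, Ccnf and Cdk14 had means of 0.065, 0.096, 0.14 and 0.16 CPM per kilobase.

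Within single pairs of libraries, where nothing could be tested, 3 members were at least 2-fold higher and 2 at least 2-fold lower in WD than in WS, beside 7.25% and 7.52% of all genes. In KD vs. KS, 3 were higher and 3 lower (Ccnk, Cdk19 and Cdk1), beside 7.52% and 6.07% of all genes. Of the 47 members, 29 in WT and 30 in Fgf21KO lay within 0.5 of 0 on the log2 scale. The ratios had the same sign in both genotypes for 38 members, against 10852 of 13084 genes. They lay at least 1 log2 unit apart for 2 members, Cdk1 (lower in Fgf21KO by 2.35) and Ccne1 (higher by 1.41), which is 4.26% of members and 4.11% of all genes. The difference between genotypes in the response could not be tested, because with 1 library a group it is the only residual degree of freedom.

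**Figure D3:**
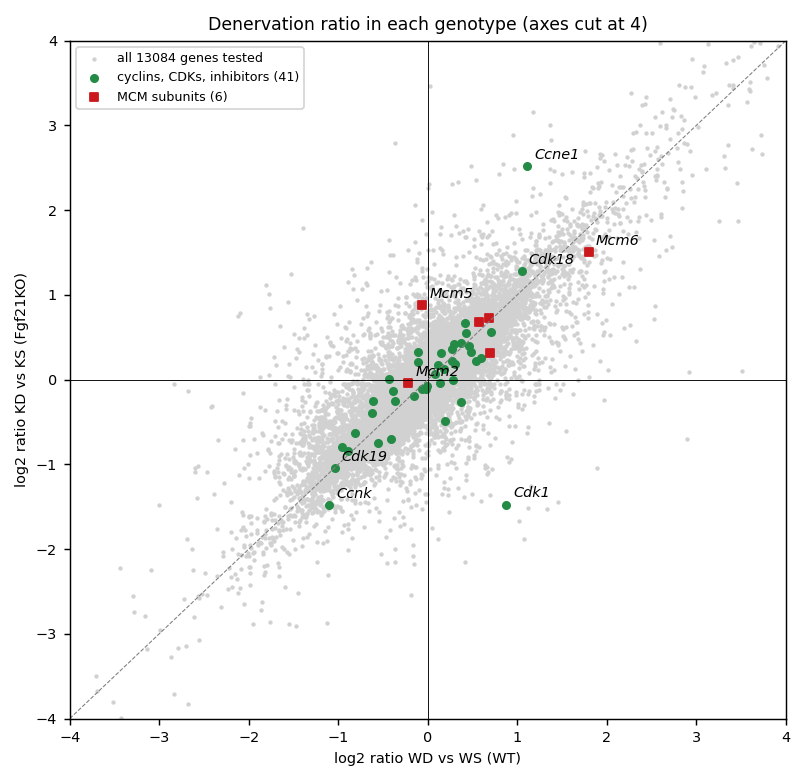
Log2 ratio of WD over WS (horizontal axis) against KD over KS (vertical axis) for all genes tested (grey), the 6 MCM subunits (red squares) and the other 41 members (green), with a dashed line of equal ratios and both axes ended at 4. Most members lie near the line, with Ccne1 above it at 1.11 and 2.52 and Cdk1 below it at 0.88 and -1.48.

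In the genotype effect over both surgeries no member was a DEG (0 of 47 by edgeR's quasi-likelihood test, and likewise by DESeq2), beside 0.0611% of all genes higher and 0.107% lower in Fgf21KO. At an adjusted p below 0.05 without a fold threshold, 0 members were higher and 1 was lower, beside 0.268% and 0.306% of all genes. An unadjusted p below 0.05 was reached by 1 of the 47 members (2.13%) and by 998 of all genes (7.63%). That member was Ccnd1, at 16.9 CPM in WS against 11.8 in KS and 12.6 in WD against 7.18 in KD, with log2 ratios of -0.52 and -0.81. Its fitted change was -0.66 ± 0.13 (SE) (adjusted p = 0.016). The adjusted p was 0.076 with total counts as the scale and 0.54 by DESeq2. In KS vs. WS, 0 members were at least 2-fold apart, beside 0.887% of all genes higher and 1.15% lower. In KD vs. WD, 0 were higher and 1 was lower, Cdk1 (25 counts in WD and 5 in KD, a ratio of -1.86), beside 0.841% and 0.718% of all genes. The ratio lay within 0.5 of 0 for 44 of the 47 members in each of these pairs.

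Genes that work with these families were read from 5 hand-written lists, and of each list the 3 highest and 3 lowest changes are named. With total counts as the scale, the genes that rose and fell by adjusted p were 22 and 2 in the replication list, 13 and 1 in the mitosis list, 11 and 2 in the RB list, 17 and 0 among the modulators and 13 and 2 in the turnover list. The shares that rose were 47.8%, 48.2%, 64.7%, 68% and 65.0%, beside 46.7% of all genes. Of the list genes named below, that scale turned the sign of Pkmyt1, Med12l and Cdk13, and Tpx2 (-0.60, adjusted p = 0.064), Lin9 (-0.36, adjusted p = 0.14) and Cables2 (-0.04, adjusted p = 0.81), which fell with TMM factors, did not pass the test on it. Of 46 tested genes of origin licensing and the replication fork, 9 rose and 3 fell by adjusted p (19.6% and 6.52%, both below the 26.4% and 26.6% of all genes), with 5 higher DEGs, 1 lower DEG and a median change of 0.10. Rrm2, the inducible subunit of ribonucleotide reductase, which makes deoxyribonucleotides, had 31 (WS), 439 (WD), 30 (KS) and 601 (KD) counts (3.83 ± 0.21 (SE), adjusted p = 4.5e-12). Tyms, thymidylate synthase, had 9, 39, 6 and 22 counts (1.69, adjusted p = 0.0052), and Cdt1, which loads the MCM ring, had 18, 63, 13 and 33 counts (1.30, adjusted p = 0.0073). The other higher DEGs, named after their values were seen, were Mcm8 (1.06) and Dbf4 (1.05). The log2 ratios of Mcm8 were 1.09 in WT and 0.99 in Fgf21KO. Dbf4 had 11 (WS), 61 (WD), 40 (KS) and 56 (KD) counts, with ratios of 1.84 in WT and 0.41 in Fgf21KO. Tk1, thymidine kinase of the salvage route, ran the other way with 94, 59, 117 and 31 counts (-1.53 ± 0.28 (SE), adjusted p = 0.0001). Timeless, a fork protection factor, fell by 0.80 (adjusted p = 0.00046).

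Of 27 tested mitosis and proliferation genes, 9 rose and 3 fell by adjusted p (33.3% and 11.1%), beside 26.4% and 26.6% of all genes. There were 4 higher DEGs and 1 lower DEG, and the median was 0.48. Of all genes, 6.8% were higher DEGs and 6.15% were lower DEGs. The highest were Ube2c, the mitotic ubiquitin-conjugating enzyme, with 4, 26, 2 and 18 counts (2.53, adjusted p = 0.0015, on 6 sham counts in all), Bub1b, a spindle checkpoint kinase, with 9, 88, 17 and 73 counts (2.37, adjusted p = 1.8e-05), and Kif20a, a cytokinesis motor, with 11, 57, 14 and 36 counts (1.59, adjusted p = 0.0025). Mki67, the usual proliferation marker, was named after its values were seen and had 19, 77, 28 and 40 counts (0.99, adjusted p = 0.027). Aurka, a centrosome kinase, fell with 130, 66, 150 and 63 counts (-1.39, adjusted p = 3.6e-05), as did its activator Tpx2 (-0.92, adjusted p = 0.0036). Cenpa had a change of -0.59 (adjusted p = 0.10). The list thus held genes moving both ways. Of its 46 genes, 18, Plk1 and Aurkb among them, were not analysed here, and Hmmr was below the filter on low counts.

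In the RB, E2F and DREAM list 5 of 17 genes rose and 3 fell by adjusted p (29.4% and 17.6%), with a median of -0.01. The shares of all genes were 26.4% and 26.6%. Rb1, the retinoblastoma protein that restrains E2F, had 542 (WS), 4066 (WD), 800 (KS) and 4067 (KD) counts (2.35 ± 0.08 (SE), adjusted p = 3.9e-15). E2f2, an activator E2F, had 116, 858, 115 and 705 counts (2.48 ± 0.13 (SE), adjusted p = 4e-12). Both genes were thus several-fold higher in each denervated library. E2f6, a repressor E2F, had 5127, 3484, 6387 and 2975 counts (-1.10 ± 0.07 (SE), adjusted p = 8.9e-11). Rbbp4, a DREAM subunit, rose by 0.80 (adjusted p = 1.2e-08), Lin9 fell by 0.67 (adjusted p = 0.006), and E2f7 had a change of -0.65 (adjusted p = 0.20).

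Of 25 CDK modulators 9 rose and 2 fell by adjusted p (36.0% and 8%), beside 26.4% and 26.6% of all genes, with a median of 0.19. This list includes Cdk12 and Cdk13. Cdk5r1, the p35 activator of Cdk5, had 3 (WS), 59 (WD), 15 (KS) and 63 (KD) counts (2.58, adjusted p = 5.3e-05). Cables1, a Cdk5 and Cdk2 linker, had 59, 231, 57 and 214 counts (1.66, adjusted p = 1.5e-06), and Ccndbp1, a cyclin D binding protein, had 466, 1396, 698 and 1271 counts (0.95, adjusted p = 7e-08). Cables2 fell by 0.35 (adjusted p = 0.015), while Pkmyt1 (-0.31) and Med12l (-0.27) were the other lowest genes. Of 20 genes of cyclin and inhibitor turnover 7 rose and 4 fell (35.0% and 20%), beside the same 26.4% and 26.6%. This list had no DEG and a median of 0.15. Anapc7 (0.73), Cdc27 (0.44) and Fbxo4 (0.39) were the highest. Anapc5 (-0.84, adjusted p = 5.1e-09), Skp2 (-0.61, adjusted p = 0.28) and Fbxo31 (-0.59) were the lowest.

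**Figure D4:**
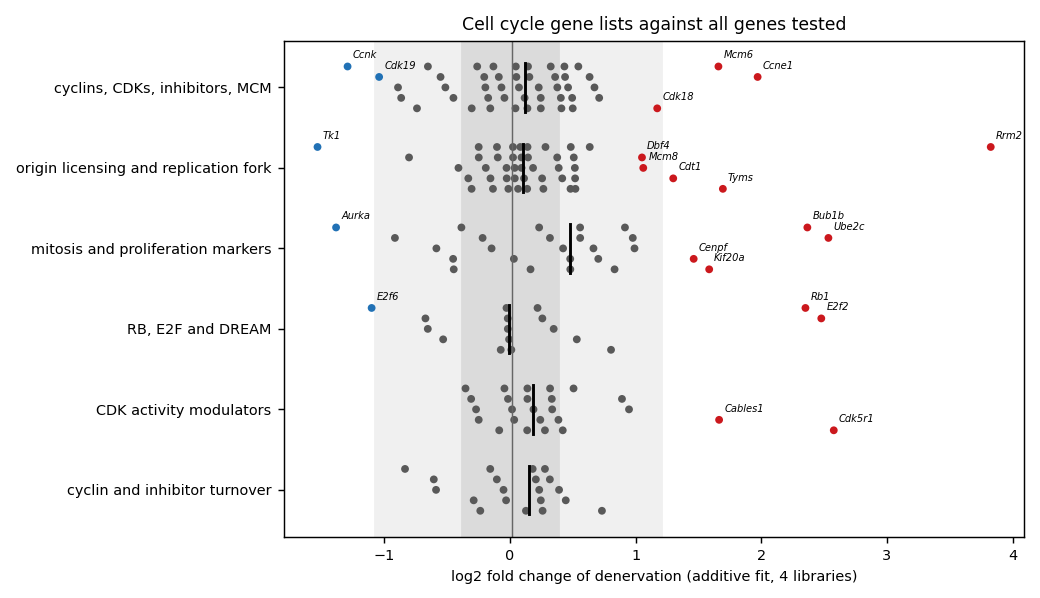
Log2 fold change of denervation (horizontal axis) for each tested gene of the members and of 5 related lists, with higher DEGs in red, lower DEGs in blue, medians as black bars, and grey bands for the middle 50% and 90% of all genes tested. List medians run from -0.01 (RB, E2F and DREAM) to 0.48 (mitosis), and Rrm2 lies farthest right at 3.83.

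Levels of cell type markers moved with surgery as well. In bulk muscle, fewer cells of a type and less RNA per cell cannot be told apart. Of 12 macrophage and leukocyte markers 10 were in the table, and their summed level was 34.5 (WS), 75.2 (WD), 36.0 (KS) and 75.8 (KD) CPM. Of these, 9 rose by adjusted p and 5 were higher DEGs. By adjusted p 26.4% of all genes rose and 26.6% fell, and 6.8% were higher DEGs. Lyz2 was the most abundant, and Cd68 went from 23 and 32 counts in sham to 350 and 333 in denervated muscle. The endothelial sum was 476.6 (WS), 220.6 (WD), 389.0 (KS) and 211.5 (KD) CPM (6 of 6 in the table, all 6 fell, Cdh5 most abundant). The pericyte and smooth muscle sum was 716.0, 297.4, 657.7 and 293.5 CPM (5 of 6 in the table, all 5 fell, Rgs5 most abundant). For fibro-adipogenic progenitors and fibroblasts it was 845.8, 568.0, 866.7 and 568.5 CPM (8 of 8 in the table, 6 fell, Gsn most abundant). Red blood cell genes summed to 288.4, 208.4, 333.0 and 170.3 CPM (5 of 5, all 5 fell, Hbb-bs most abundant). With total counts as the scale, 10 of 10 macrophage and leukocyte markers were higher, and 5 of 6 endothelial, 5 of 5 pericyte, 3 of 8 fibro-adipogenic and 4 of 5 red blood cell markers were lower by adjusted p.

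Of the satellite cell markers only Vcam1, which other cells also express, was in the table (4.21, 3.83, 5.52 and 4.27 CPM), and Pax7, Myf5 and Myod1 were not analysed here. The myofibre label rests on Myh1 and Tnni2, the 2 of 10 listed genes in the table, which summed to 32330 (WS), 20230 (WD), 30480 (KS) and 22180 (KD) CPM. Of Schwann cell markers 3 of 6 were present (23.8, 17.0, 22.5 and 17.5 CPM, Mbp most abundant), and of adipocyte markers 1 of 4, Cidec, which did not pass the test. The part of these marker levels in the changes of Mcm6, Ccne1, Ccnd1, Ccnd2 and the other members was not tested.

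**Figure D5:**
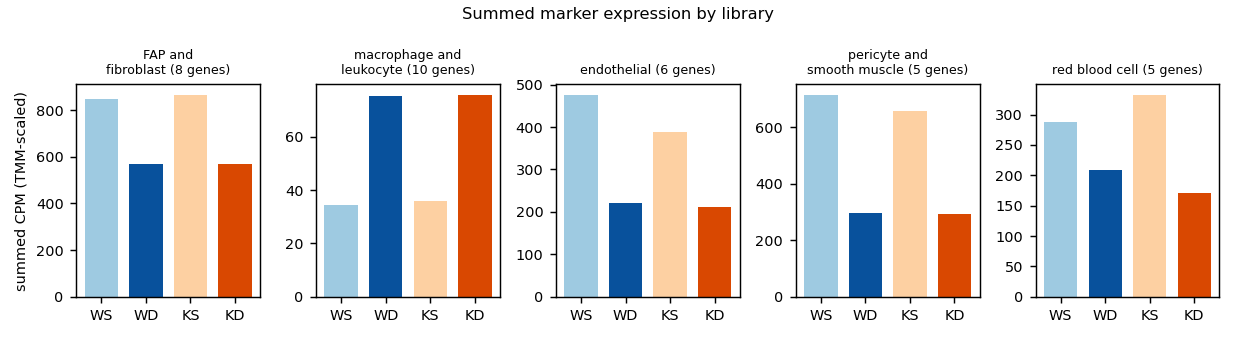
Summed TMM-scaled CPM of 5 marker lists in the WS, WD, KS and KD libraries, each axis starting at 0 and the number of genes in brackets. The macrophage and leukocyte sum is higher in WD and KD (75.2 and 75.8 CPM) than in WS and KS (34.5 and 36.0), and the other 4 sums are lower in the denervated libraries.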

How the data were processed

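RNA-seq of TA muscle from 4 groups was used, with 1 library per group from 4 pooled muscles. The authors deposited raw counts per gene (13825 genes) and a second table of log2 values. The deposited log2 values are log2(c + 1), where c is the count multiplied by a constant of its library, so they hold no length correction although the table is named for FPKM. The submitters' processing notes name FastQC and GRCm39, and the aligner and counter are not given in the sources used here. Each gene in the count table had at least 1 count in each library.

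The 13084 genes that averaged 10 counts or more were fitted with edgeR 4.0.16 (R 4.3.3): TMM factors, quasi-likelihood test, additive genotype and surgery terms, 1 residual degree of freedom, common biological coefficient of variation 0.068. The thresholds (adjusted p below 0.05, log2 fold change of at least 1 in size) and edgeR are those named by the study. Standard errors are the log2 fold change divided by the square root of F. Log2 ratios of CPM used a prior count of 2. Exact binomial (Clopper-Pearson) 95% intervals were taken from the counts without a prior count, with Python 3.11.15 and scipy 1.17.1. Exon lengths came from GENCODE M21 (48 matched), and overlapping genes and promoter windows from RefSeq, both on GRCm38. No coordinate was converted to the build of the notes.

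The gene family and the lists were picked with earlier results of these data known, although the symbol rule itself uses no values. Members called, at least 2-fold apart in either denervation pair, MCM subunits, D-type cyclins and inhibitors were given in all libraries, and the 3 highest and 3 lowest genes of each list were named, except 1 result that is not reported here. Alternatives were DESeq2 1.42.0 (size factors and Wald test), total counts, no filter, a mean of at least 50, a lower prior count and one of 5, no fold threshold, the second table and, added after seeing the data, a fit without the genotype term.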

Additional observations from a re-analysis of the deposited data

Results flagged for a closer look

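Cdk1 had denervation ratios of opposite sign in the genotypes. The log2 ratio was 0.88 in WT and -1.48 in Fgf21KO, a difference of -2.35 (Fgf21KO minus WT). The difference was -0.78 in the second deposited table and ran from -1.91 to -2.78 with other prior counts. There were 9 (WS), 25 (WD), 17 (KS) and 5 (KD) counts. The WT ratio's counting interval held 0, and the difference between genotypes was not tested.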

How the results depend on the processing

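No paired analysis was possible because a group holds a single pooled library, beyond the genotype term, which pairs the sham and denervated libraries of each genotype. With no replicate block, that is without this term, denervation called 3 members higher and 2 lower (867 and 796 genes). Leaving out a library would leave no residual degree of freedom, so that alternative was not run. No alternative reversed a call. For the single genes followed, 30 tested values kept their call and 4 lost it: with total counts Ccnk (-0.98) and Cdk19 (-0.72) fell short of 2-fold, and Ccnd1's genotype effect had an adjusted p of 0.076 with total counts and 0.54 by DESeq2. Of 80 ratios between libraries 8 crossed 2-fold: with total counts Ccnk in WD vs. WS (-0.82), Cdk19 in both pairs (-0.76 and -0.68) and Cdk1 in WD vs. WS (1.12), in the second table Ccne1 (0.52) and Cdk18 (0.96) in WD vs. WS and Cdk1 in KD vs. KS (-0.44), and with a prior count of 5 Ccne1 in WD vs. WS (0.99). The cause was not tested.

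For the counts of genes called, 37 values lay more than 1.5 times away from the count reported and the others did not. With total counts only, the denervation effect called 0 members lower and 1704 genes higher and 324 lower, WD vs. WS gave 0 members lower and 1633 and 486 genes, KD vs. KS gave 7 members higher and 1948 and 342 genes, and the genotype effect called 5 genes higher. The median of all genes moved to 0.29 (WT denervation), 0.36 (Fgf21KO denervation) and -0.08 (KS vs. WS) under that scale. With no fold threshold, denervation called 14 members higher and 11 lower (3450 and 3474 genes), and genotype 1 member lower (35 and 40 genes). DESeq2's Wald test called 5 and 8 genes for genotype. With a mean of at least 50, which tests fewer genes, the genotype effect called 7 genes lower, KS vs. WS gave 28 and 40 genes, and KD vs. WD gave 0 members lower and 27 and 20 genes. The second table gave 1 member higher and 571 and 617 genes in WD vs. WS, then 591 and 526 genes for KD vs. KS, 15 and 14 for KS vs. WS, and 0 members lower and 14 and 11 genes in KD vs. WD. In KS vs. WS a lower prior count gave 1 member lower, and a prior count of 5 gave 99 genes lower. Members that averaged under 50 counts, such as Cdk1, Ccna2 and Ccne1, had wide counting intervals. The part of sequencing depth in these results was not tested.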
